A study of Mus musculus with 14 samples.

Results

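Of the 12526 promoter regions that carried the histone mark H3K4me3 in both libraries of day 3 of ATDC5 differentiation, 872 overlapped no peak of the transcription factor RUNX2. They made up 6.96% of the promoter regions (exact Clopper-Pearson 95% interval 6.52 to 7.42%), and 21011 H3K4me3 regions were found in the genome in all. A region is the stretch shared by a peak of each of the 2 H3K4me3 lists of day 3. It was counted as a promoter region when it lay within 1 kb of the first or last base of a protein-coding gene, so that some of the regions lie at 3′ ends. RUNX2 had a peak over 11249 of the promoter regions in both of its day 3 lists and over 405 in 1 list. The members were thus chosen by the H3K4me3 and RUNX2 peaks of day 3, and what these peaks show about them is a description with no test. The H3K4me3 lists of days 0 and 10 took no part in the choice.

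ATDC5 is a mouse line derived from a teratocarcinoma that forms cartilage-like tissue in culture. Undifferentiated cells were passaged in medium with 5% serum (day 0), and dense droplets of cells were given β-glycerophosphate and an ascorbate for 3 or 10 days. No gene was altered in any group, and the cells are a single line. H3K4me3 and RUNX2 were each precipitated from formaldehyde-fixed chromatin on each day, in 2 libraries numbered 1 and 2. Whether these came from different cultures is not in the labels, and their spread may be technical only.

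H3K4me3, trimethylation of lysine 4 of histone H3, is laid down around transcription start sites. It marks the promoters of active genes as broad, high domains and is also found, lower and narrower, at the CpG-rich promoters of many silent developmental regulators. RUNX2 is a runt-domain factor that binds DNA with its partner CBFβ and is needed for osteoblast formation and for the hypertrophy of chondrocytes. The cartilage genes Sox9, Col2a1 and Acan, and Runx2 itself, each had a day 3 promoter region with a RUNX2 peak in both lists. At least 11109 of the 12044 genes with a promoter region (92.2%) had the same, so these genes are no check of the cells.

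The RUNX2 lists of day 3 held 19319 and 16859 peaks, against 97 to 108 in each RUNX2 list of days 0 and 10. None of the 872 regions overlapped a peak of the RUNX2 lists of days 0 and 10, and of the 11249 regions with RUNX2 in both day 3 lists a single one did in each. In the H3K4me3 lists there were 28653 and 26781 peaks on day 3, against 13765 and 20863 before differentiation and 15219 and 29022 after 10 days. Replicate 2 was thus the longer list on days 0 and 10. Read numbers of the libraries are unknown here, and a region absent from a list had no peak called at that library's depth.

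The promoter windows of 6 genes show how the regions lie at gene starts. Each window runs from 250 bases before the annotated start to 50 after it, is given 5′ to 3′ on the gene's strand, and comes from RefSeq on GRCm38.p6. Capitals mark TGNGGT, searched on both strands (ACCNCA is its reverse), where N is any base. It includes the RUNX core motifs TGTGGT and TGCGGT and was found in 43.7% of 17492 promoter windows of protein-coding genes. A match is a match of letters and shows no binding. By the folds of the peaks that hold them, the strongest regions without RUNX2 were at Id4 and 2610507B11Rik. Emx1 had a region among the strongest in no list of day 0 or 10. The strongest regions with RUNX2 in both lists were at Gm13278 and Phf10. Ebf3 ranked with Emx1 but is not shown, because its annotated window lies away from the region. Mnx1, chosen after its values were seen, is a gene whose start lay in the middle of a wide region without RUNX2.
Id4: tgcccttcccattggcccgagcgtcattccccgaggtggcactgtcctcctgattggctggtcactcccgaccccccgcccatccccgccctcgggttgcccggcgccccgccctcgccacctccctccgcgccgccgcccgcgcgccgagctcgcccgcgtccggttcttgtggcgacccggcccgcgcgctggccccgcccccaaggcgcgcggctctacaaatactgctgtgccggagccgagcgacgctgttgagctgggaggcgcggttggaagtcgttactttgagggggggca
2610507B11Rik: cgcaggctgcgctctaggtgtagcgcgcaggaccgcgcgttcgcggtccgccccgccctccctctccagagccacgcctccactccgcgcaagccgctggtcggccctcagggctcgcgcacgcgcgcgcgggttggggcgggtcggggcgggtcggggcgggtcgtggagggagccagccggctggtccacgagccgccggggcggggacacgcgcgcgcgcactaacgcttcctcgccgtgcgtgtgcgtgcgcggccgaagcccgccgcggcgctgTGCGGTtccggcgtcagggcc
Emx1: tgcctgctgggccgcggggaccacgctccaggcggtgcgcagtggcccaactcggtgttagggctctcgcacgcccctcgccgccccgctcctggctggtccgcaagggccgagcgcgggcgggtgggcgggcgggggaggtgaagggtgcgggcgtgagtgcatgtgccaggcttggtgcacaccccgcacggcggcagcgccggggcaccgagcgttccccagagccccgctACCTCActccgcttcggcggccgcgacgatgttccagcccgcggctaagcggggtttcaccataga
Mnx1: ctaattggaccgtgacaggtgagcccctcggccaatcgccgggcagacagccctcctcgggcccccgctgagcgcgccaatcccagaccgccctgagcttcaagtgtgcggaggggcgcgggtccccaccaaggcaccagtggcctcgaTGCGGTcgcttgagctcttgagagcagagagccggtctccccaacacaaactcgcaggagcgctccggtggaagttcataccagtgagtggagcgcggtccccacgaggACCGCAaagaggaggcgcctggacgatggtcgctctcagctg
Gm13278: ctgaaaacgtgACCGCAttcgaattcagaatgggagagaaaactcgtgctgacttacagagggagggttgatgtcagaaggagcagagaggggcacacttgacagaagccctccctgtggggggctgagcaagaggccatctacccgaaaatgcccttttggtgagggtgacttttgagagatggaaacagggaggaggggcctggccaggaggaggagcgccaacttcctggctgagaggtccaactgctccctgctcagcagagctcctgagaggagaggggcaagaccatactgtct
Phf10: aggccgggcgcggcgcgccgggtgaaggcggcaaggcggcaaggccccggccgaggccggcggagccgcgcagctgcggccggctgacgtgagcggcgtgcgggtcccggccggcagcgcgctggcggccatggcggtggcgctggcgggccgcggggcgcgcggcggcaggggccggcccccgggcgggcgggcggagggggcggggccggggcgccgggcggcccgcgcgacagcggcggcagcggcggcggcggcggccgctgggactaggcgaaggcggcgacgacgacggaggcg

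The Id4 window lies at chr13:48260866-48261165 on the plus strand, and the region, at chr13:48260348-48260812, ended before it. The 2610507B11Rik window, at chr11:78261504-78261803 (plus strand), shared 17 bases with its region at chr11:78261150-78261520. The Emx1 window, at chr6:85187681-85187980 (plus strand), shared none with the region at chr6:85187553-85187637. In contrast, the Mnx1 window, at chr5:29478421-29478720 (minus strand), lay in full inside its region at chr5:29477853-29479090. So did the Gm13278 window, at chr4:88790645-88790944 (plus strand), and the Phf10 window, at chr17:14961211-14961510 (minus strand). The motif was found 2 times at Mnx1, 1 time each at 2610507B11Rik, Emx1 and Gm13278, and not in the windows of Id4 and Phf10. The match at Emx1, ACCTCA, is TGAGGT on the other strand and thus neither of the core motifs TGTGGT and TGCGGT. The GC content of the windows was 73.3% at Id4, 78.7% at 2610507B11Rik, 74.0% at Emx1, 66.3% at Mnx1, 56.3% at Gm13278 and 87.0% at Phf10. How reads from near-identical gene copies were placed is not given, which bears on predicted genes such as Gm13278. A comparison of base content or motifs between genes with and without RUNX2 is void and not reported: of the 352 genes without RUNX2 at any region, 258 (73.3%) had a promoter sequence, under the 80% set as the least for such a check.

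The regions without RUNX2 were narrow. Their median width was 290.5 bp (quartiles 219 and 412 bp, range 7 to 1769 bp), against 452 bp for regions with RUNX2 in 1 list and 1494 bp for regions with RUNX2 in both. Of the 872, 10 (1.15%) were wider than 1000 bp, against 79.1% of the regions with RUNX2 in both lists. When all promoter regions were divided by width into 5 equal bins, 33.4% of the narrowest (3 to 794 bp) were without RUNX2. In the next bin (795 to 1227 bp) it was 1.08%, then 0.239% (6 regions), 0.0399% (1 region) and 0% (0 of 2497) in the widest. By its construction a wider region is more likely to meet a RUNX2 peak. The widths of the peaks themselves had the same order. A wider peak is also more likely to meet a RUNX2 peak, so they are no separate support. The H3K4me3 peaks holding regions without RUNX2 had a median width of 1061.5 bp in replicate 1 and 361.5 bp in replicate 2, against 1989 and 1535 bp for regions with RUNX2 in both lists.

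**Figure D1:**
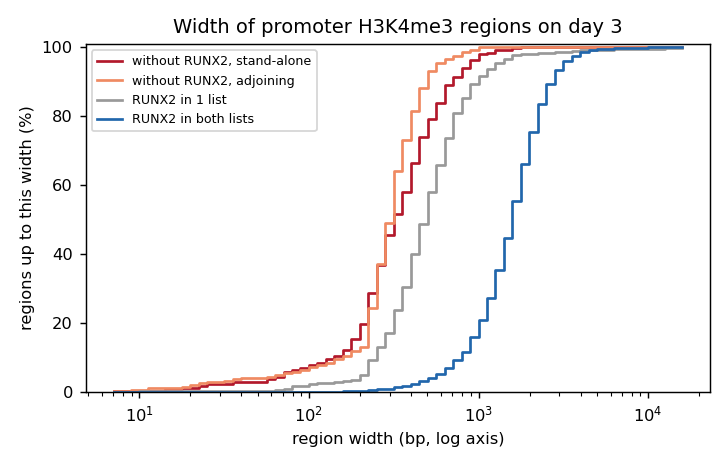
Cumulative share of day 3 promoter H3K4me3 regions (%) up to each width (bp, log axis), for regions without RUNX2 that stand alone or adjoin RUNX2, and for regions with RUNX2 in 1 or both lists. Both curves without RUNX2 lie to the left, with medians of 307 and 286 bp, and regions with RUNX2 in both lists lie to the right, with a median of 1494 bp.

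The peaks that hold the regions without RUNX2 were also weaker at the median. Each region took the authors' fold enrichment of the whole peak, whose summit may lie outside the region. Its median was 9.14 in replicate 1 and 4.81 in replicate 2, against 23.0 and 9.66 for regions with RUNX2 in both lists. Ranked within each list, these medians stood at percentile 48.8 and 31.1 for regions without RUNX2 and at 78.3 and 73.5 for regions with RUNX2 in both. Regions with RUNX2 in 1 list were between the others, with median folds of 19.0 and 6.02. The replicate 1 median of 9.14 pools 2 unlike sets, described next, with medians of 6.50 and 20.0.

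By their surroundings the 872 regions fell into 2 sets, a split made after their values were seen. At 494, called stand-alone here, neither of the H3K4me3 peaks that hold the region overlapped a RUNX2 peak. At the other 378, called adjoining, at least 1 of those peaks reached a RUNX2 peak outside the region. The replicate 1 peak alone did so at 347, the replicate 2 peak alone at 30 and both at 1. The median distance to the nearest RUNX2 peak was 24617.5 bp for stand-alone and 175 bp for adjoining regions. Over 10 kb from any RUNX2 peak lay 324 regions, all of them stand-alone. Within 1 kb of one lay 435 of the 872 (49.9%), of which 59 were stand-alone. For the adjoining regions the label "without RUNX2" therefore holds for the stretch shared by both libraries, and not for the whole H3K4me3 domain around it.

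The sets differed in fold and in place. Median fold in replicate 1 was 6.50 for stand-alone and 20.0 for adjoining regions, while in replicate 2 it was 4.97 and 4.76. The replicate 1 peaks that hold adjoining regions had a median width of 1974.5 bp and the replicate 2 peaks 314 bp, so that a wide peak of 1 library met a short peak of the other. For stand-alone regions the peak medians were 627 and 405 bp. Of the adjoining regions, 55.8% (211) had their midpoint 250 to 750 bp outside the nearest gene end, against 15.0% (74) of the stand-alone regions and 6.78% of regions with RUNX2 in both lists. Inside the gene lay 23.3% of adjoining, 70.2% of stand-alone and 82.9% of regions with RUNX2 in both lists. A gene end was held by 17.0% (148) of the 872 regions and by 75.1% of regions with RUNX2 in both lists. By its construction a narrower region is less likely to hold one. The median distance of the midpoint from the nearest gene end was 404.5 bp for the 872 and 390.5 bp for regions with RUNX2 in both lists. The nearest gene end was the 5′ end for 571 of the 872 and the 3′ end for 92, and the strand was not known for 209. Among regions with known strand, 13.9% of those without RUNX2 and 2.77% of those with RUNX2 in both lists were nearest a 3′ end.

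**Figure D2:**
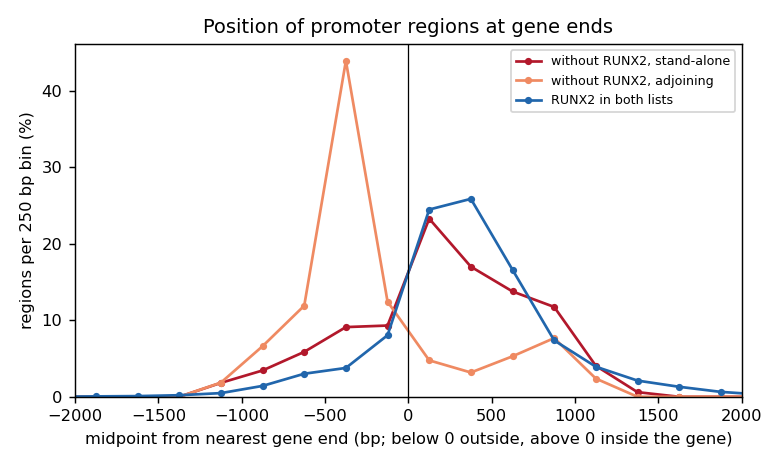
Share of regions (%) per bin of 250 bp by the distance of the region's midpoint from the nearest gene end (bp, below 0 outside and above 0 inside the gene). Adjoining regions without RUNX2 peak outside the gene, with 55.8% from 250 to 750 bp outside, while stand-alone regions and regions with RUNX2 in both lists lie mostly inside.

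Whether the regions were marked on the other days was read from the 4 H3K4me3 lists that took no part in choosing them. On day 0, 24 of the 872 regions (2.75%, interval 1.77 to 4.07%) had a peak in replicate 1 and 265 (30.4%, 27.4 to 33.6%) in replicate 2. On day 10, 103 (11.8%, 9.74 to 14.1%) had one in replicate 1 and 696 (79.8%, 77.0 to 82.4%) in replicate 2. Regions with RUNX2 in both lists were found again in 87.6%, 97.1%, 96.5% and 99.9% of cases in the same order, and regions with RUNX2 in 1 list in 19.0%, 63.2%, 49.6% and 97.0%. The regions without RUNX2 were lower in 4 of 4 libraries, by 84.9, 66.7, 84.7 and 20.1 percentage points, and the intervals of the groups did not overlap in any library.

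The mean difference was -64.1 ± 30.5 percentage points (SD, n = 4 libraries). A two-sided exact sign-flip permutation test over the libraries gave p = 0.125, the smallest p that 4 libraries allow, so that no difference could pass 0.05. Stand-alone regions differed by -67.0 ± 29.0 and adjoining regions by -60.3 ± 33.0 points (SD, n = 4; exact p = 0.125 for each). Intervals cover counting error and treat regions as independent, which neighbouring regions of 1 gene are not.

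**Figure D3:**
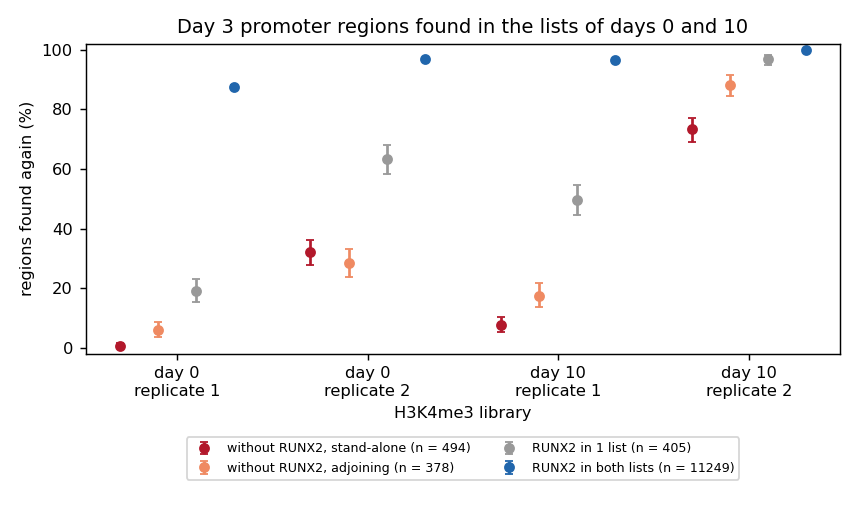
Share of day 3 promoter regions (%) that overlapped an H3K4me3 peak in each of the 4 libraries of days 0 and 10. Points are shares with exact 95% intervals, and in every library both sets without RUNX2 lie below the regions with RUNX2 in both lists, by least in day 10 replicate 2.

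The difference was smaller among regions of like width. The regions without RUNX2 were divided by width into 5 bins of about equal number, and the same limits were applied to regions with RUNX2 in both lists. From 331 to 443 bp, where the groups had 175 and 177 regions, those without RUNX2 were found again in 6.29% and 33.1% of cases on day 0 and in 20.0% and 92.0% on day 10. Those with RUNX2 were found again in 14.7% and 68.4% on day 0 and in 66.7% and 98.9% on day 10. From 7 to 214 bp the shares were 1.19%, 22.0%, 2.38% and 55.4% without RUNX2 (168 regions) and 2.33%, 44.2%, 34.9% and 88.4% with it (43 regions). The share was lower without RUNX2 in each of the 5 bins in each of the 4 libraries. Averaged over the 4 narrower bins the difference was -25.1 points (exact p = 0.125), and the bins ranged from -27.3 to -22.2 points, against -64.1 points without regard to width. The widest bin is not one of like width, as its median was 583 bp without RUNX2 (175 regions) and 1525 bp with it (10900 regions of 444 bp or more). There the difference was -56.0 points, and with this bin the average was -31.3 points (exact p = 0.125). The average over 4 bins was added after the others had been seen.

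**Figure D4:**
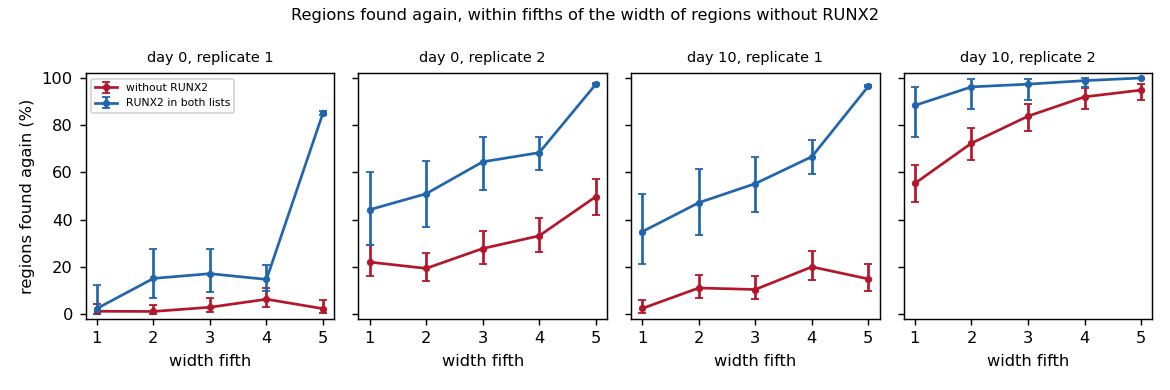
Share of regions found again (%) in each of the 4 H3K4me3 libraries, by width bin from narrowest (1) to widest (5, up to 1769 bp), with exact 95% intervals. Regions without RUNX2 lie below regions with RUNX2 in both lists in each bin of each library, and intervals overlap in several of the narrow bins.

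From day 0 to day 10 the share of regions without RUNX2 that were found again went from 16.6 ± 19.5% to 45.8 ± 48.1% (SD, n = 2 libraries a day). The difference was 29.2 points, and the values of the days overlapped, since day 0 replicate 2 was above day 10 replicate 1 (two-sided exact permutation test, p = 0.667, smallest possible p = 0.333). Without replicate 2 of day 10, whose list is the longest, it turned to -4.76 points, and with the other libraries left out in turn it was 15.4 to 63.2 points. With an equal number of best peaks from each list it was 9.12 points. The regions thus varied more by replicate number than by day: both replicate 2 lists held more of them than either replicate 1 list.

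By history, 135 of the 872 regions (15.5%) were in none of the 4 lists, against 1.17% of all promoter regions. In all 4 lists were 7 regions (0.803%), against 78.5%. Day 10 replicate 2 was the single list for 397 (45.5%), against 4.75% of all promoter regions. The replicate 2 lists of both days and no other held 188 (21.6%), against 4.04%. Both lists of day 0 held 12 regions, where 79.0% of all promoter regions were held, and both lists of day 10 held 100, against 89.0%. In neither day 0 list and both day 10 lists were 61 regions (7.00%), against 2.25% of all promoter regions. The reverse, both day 0 lists and neither day 10 list, was seen at 0 of the 872 and at 0 of all 12526 promoter regions. Of the 405 regions with RUNX2 in 1 list, 47 (11.6%) were in neither day 0 list and both day 10 lists. The replicate 2 lists of both days and no other held 88 of them (21.7%). These histories were thus not particular to regions without RUNX2. The day 0 lists held 13765 and 20863 peaks and the day 10 lists 15219 and 29022. The part of list length in these counts was not tested.

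Of the 10 regions with the highest fold rank in both day 3 lists, 7 were adjoining and 9 lay outside the gene. The folds are those of the whole peaks, and at the 7 at least 1 such peak reached a RUNX2 peak. Their rank is thus not that of the stretch without RUNX2 alone. The strongest was at Id4, which encodes a helix-loop-helix protein that blocks the binding of basic helix-loop-helix factors. It had folds of 32.6 and 11.5, lay 238 bp from a RUNX2 peak, and was in neither day 0 list and in both day 10 lists, with folds of 4.58 and 8.30. At 2610507B11Rik the folds were 20.4 and 9.41 on day 3 and 20.7 and 10.5 on day 10, with no peak on day 0 and a RUNX2 peak 127 bp away. At Arhgap19, which encodes a GTPase-activating protein, the region was in all 4 lists, with day 0 folds of 5.63 and 4.62 and day 10 folds of 4.88 and 11.5. The others were at Tmem87b, Fam90a1b, Acap2, Pwwp3a, Bcl10 (an adaptor of NF-κB signalling), Calm3 (a calmodulin gene) and Snx3 (a sorting nexin). Each of the 10 lay within 1 kb of a RUNX2 peak.

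The 10 widest regions were all stand-alone. The widest, 1769 bp at chr17:83631778-83633546, held the start of Kcng3, a modulatory potassium channel subunit, with day 3 folds of 10.5 and 8.24, and lay 72156 bp from RUNX2. It was absent from both replicate 1 lists and present in day 0 replicate 2 (fold 6.07) and day 10 replicate 2 (fold 6.87). Dsp, which encodes the desmosomal protein desmoplakin, had 1518 bp and lay 51349 bp from RUNX2. Gfi1, a zinc finger repressor of blood cell development, had 1425 bp and lay 36420 bp away. Mnx1, the homeobox factor of motor neurons and pancreas, had 1238 bp with folds of 7.46 and 8.64 on day 3, and was in the replicate 2 lists of day 0 (fold 7.44) and day 10 (fold 10.3). The others were at Mrgprf, Duxbl1, Ap5b1, Dlgap2 (a postsynaptic scaffold), Foxb2 and Pgk1 (a glycolytic kinase). Of the 10, the Pgk1 region alone was in a replicate 1 list, that of day 10.

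The strongest of the regions in none of the 4 lists were at Myo1d, Ebf3, Adgrb1, Insm1, Wdr36, Emx1, Plxdc1, Otx1 (2 regions) and Arhgef7. Ebf3, Insm1, Emx1 and Otx1 encode transcription factors of neural or neuroendocrine development. The Insm1 region had folds of 7.60 and 5.88 and lay 287012 bp from RUNX2, and the Ebf3 region had 7.60 and 5.95 and lay 6853 bp away. Myo1d, Plxdc1 and Wdr36 were adjoining, 158 to 195 bp from RUNX2. Among regions in neither day 0 list and both day 10 lists, the strongest after Id4 and 2610507B11Rik were at Susd6, Ypel5, C1qtnf3, Immp2l, Tmcc3, Stk38l, Ptgis and Get1. C1qtnf3, which encodes a secreted protein expressed in growing cartilage, had folds of 12.1 and 7.91 on day 3 and 4.70 and 5.17 on day 10, and lay 27884 bp from RUNX2. Ptgis, the prostacyclin synthase gene, had 8.55 and 6.50 on day 3 and 6.03 and 4.62 on day 10.

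At the edge of the rule, the regions closest to a RUNX2 peak without overlap were at Elk1 (2 bp), Nap1l1 (3 bp), Cwc25 (5 bp), Eomes (5 bp) and Atp11b (6 bp). The regions kept out with the fewest overlapping bases were at Nol10 (3 bp), Dhh (3 bp), Hic1 (5 bp), Rnf214 (5 bp) and Il13ra1 (8 bp). The Nol10 and Il13ra1 regions were themselves 3 and 8 bp wide and lay in full under RUNX2 peaks, so their overlap was limited by their width. The 5 just inside had day 3 folds of 10.8 to 33.2 in replicate 1 and 3.76 to 5.97 in replicate 2, and the 5 with the fewest overlapping bases 5.57 to 25.7 and 3.53 to 8.22. All of the former were adjoining.

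By gene, 851 genes lay within 1 kb of a region without RUNX2. Of the 12044 genes with a promoter region, 352 (2.92%) had no RUNX2 at any of theirs, 499 had regions of both kinds, 84 had RUNX2 in 1 list at each, and 11109 had it in both lists at 1 region or more and in at least 1 list at the rest. Of the 352, 340 had a stand-alone region, 49 had more than 1 region and 21 (5.97%) had Gm or Rik names. The share of such names among all genes with a region was not counted. The 352 were set against 22 gene lists and 18 families of gene names, which overlap each other. The choice of members decides these counts, so they are given beside the share among all genes with a region, with no test.

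The highest share was that of transcription factors of other lineages. Of 42 neural and endodermal developmental factors with a day 3 promoter region, 17 (40.5%, interval 25.6 to 56.7%) had no RUNX2 at any, against 2.92% of all genes with a region. Among them were the neuronal factors Neurod2, Atoh1, Olig2, Pou3f2, Tlx3, Lhx1 and Ebf3, the forebrain and eye factors Pax6, Otx2, Emx1 and Six3, and the neural crest factor Foxd3. Mnx1, the intestinal factor Cdx2, the heart factor Nkx2-5 and the blood factor Tal1 were also among them, the last 2 outside what the name of the list says. The 17 genes had 24 regions, all stand-alone, with a median width of 254 bp and a median distance of 10196 bp to RUNX2. Fold ran from 3.80 to 8.55 in replicate 1 (median 5.91) and from 3.74 to 8.64 in replicate 2 (median 5.35). Neither replicate 1 list of day 0 or 10 held any of the 24, while replicate 2 of day 0 held 10 and replicate 2 of day 10 held 14. In none of the 4 lists were 6, among them regions at Atoh1, Ebf3, Emx1, Lhx1 and Six3.

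The values of single genes show how low these regions were. Pax6, a regulator of eye and brain, had regions of 64 and 369 bp, both with a fold of 7.60 in replicate 1 and with 4.67 and 7.06 in replicate 2, and both again in day 0 replicate 2 alone. Emx1, a factor of the cerebral cortex, had 4 regions of 85 to 604 bp, of which 3 were again in day 10 replicate 2 and 1 also in day 0 replicate 2. Neurod2, a neuronal basic helix-loop-helix factor, had 577 bp with folds of 8.55 and 5.74, again in day 0 replicate 2 alone. Olig2, of motor neurons and oligodendrocytes, had 910 bp over a gene end with folds of 7.13 and 4.55, again in day 10 replicate 2 alone. The same fold of a list recurs at several genes (7.60 in replicate 1 at Pax6, Ebf3 and Insm1), as the authors' values at low peaks are stepped.

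Potassium channels had the next highest share among lists and families with at least 14 genes. Of 30 potassium channel genes, 11 (36.7%, 19.9 to 56.1%) had no RUNX2 at any region, among them Kcna1, Kcna6, Kcnc4, Kcng3, Kcnj4, Kcnj8, Kcnk12, Kcnk3, Kcnk6 and Kcns3. Their 15 regions were all stand-alone, had a median width of 273 bp and lay a median of 72425 bp from RUNX2. Day 0 replicate 2 held 9 of them, day 10 replicate 2 held 13 and both replicate 1 lists held 0. Of 97 homeobox and forkhead genes, taken by their names, 17 (17.5%, 10.6 to 26.6%) had none, among them Foxb1, Foxe3, Foxi3, Foxn4, Irx1, Irx6, Nkx1-1 and Nkx1-2. Pax6, Six3, Lhx1, Foxd3 and Nkx2-5 counted in this family and in the list above.

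Most skeletal genes with a region had RUNX2, as did most genes with a region. In each skeletal list the share without it was above the 2.92% of all genes. The intervals given here describe counting over genes and are no test. That of the limb list alone lay above 2.92%, but all 5 of its genes had a widest region of at most 500 bp. In that class 50.4% of all genes with a region had no RUNX2. Of 34 limb and skeletal patterning factors, 5 (14.7%, 4.95 to 31.1%) had no RUNX2: Pitx1, a hindlimb factor, Barx1, Tbx15, Hand2 and Alx4. Alx4, a factor of limb and skull, had regions of 119 and 363 bp, and the latter was again in 3 lists. Of 30 HOX genes, 3 (10.0%, 2.11 to 26.5%) had none, the posterior genes Hoxc11, Hoxc12 and Hoxd11. Among 18 chondrocyte regulators there were 2, Gdf5, a joint-forming BMP ligand, and Hdac4, a repressor of hypertrophy. Gdf5 had 3 regions of 380, 659 and 680 bp with folds of 10.9 in replicate 1 and 5.43 to 5.95 in replicate 2. Each was again in day 10 replicate 2 alone. The 3 had the same fold in day 3 replicate 1 and in day 10 replicate 2 (6.28), so they may be pieces of a single peak there. Ihh, the hedgehog ligand of prehypertrophic chondrocytes, was the 1 of 16 genes of mature chondrocytes and bone, with 189 bp, folds of 5.45 and 3.97, a RUNX2 peak 95824 bp away, and a peak in day 10 replicate 2 alone. Among 13 cartilage matrix genes it was Omd, which encodes osteomodulin.

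Of all genes with a region, 2.92% were without RUNX2 at any, and the interval of each signalling pathway list held this share. Of the signalling pathway lists, the WNT list had 4 of 41 genes (9.76%) without RUNX2, the ligands Wnt6, Wnt7b and Wnt10a and the receptor Lgr6. In the BMP and TGF-β list there were 3 of 37 (8.11%), the ligands Bmp3, Gdf5 and Gdf7. In the FGF and growth factor list there were 3 of 22 (13.6%), the ligands Fgf8 and Fgf10 and the receptor Pdgfra. The Fgf10 region was adjoining, a stretch of 23 bp that lay 41 bp from a RUNX2 peak. In the hedgehog list it was Ihh alone of 16. The Fgf8 and Bmp3 regions were in none of the 4 lists, whereas the Wnt7b regions, of 265 and 661 bp, were in both replicate 2 lists. Among markers of other cell types there were Elavl3 and Gad1 of 5 neuronal genes (interval 5.27 to 85.3%) and Esrp1 and Ovol1 of 6 epithelial genes (4.33 to 77.7%). Cd34, Pdgfra and Tcf21 were those of 14 tendon and fibroblast genes (21.4%, 4.66 to 50.8%). Lipe was that of 8 adipocyte genes (0.316 to 52.7%) and Cd34 that of 7 haematopoietic genes (0.361 to 57.9%). These intervals are wide and are no test. None of 2 muscle, 5 endothelial and 7 pluripotency and germline genes with a region was without RUNX2. The upper limits of their intervals were 84.2%, 52.2% and 41.0%, so these lists were too small to set against 2.92%. At Ovol1 the nearest gene end belonged to Ap5b1.

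Lists of general cell functions held few genes without RUNX2, as did all genes with a region (2.92%). Without it at every region were 0 of 28 housekeeping genes, 0 of 26 genes of hypoxia and glycolysis, 0 of 25 matrix proteases and inhibitors, 0 of 90 cytosolic and 0 of 73 mitochondrial ribosomal protein genes, 0 of 46 proteasome genes and 0 of 64 replication-dependent histone genes. The upper limits of their intervals ran from 4.02% to 13.7%, all above the 2.92%, so a share lower than that of all genes was not detectable at these list sizes. Of 48 genes with names of complex I subunits, 2 (4.17%, 0.509 to 14.3%) were without RUNX2, Ndufa4l2 and Ndufb4c. A name alone does not show that the product is a subunit. Of 43 cell cycle genes it was Ccna2, the cyclin A2 gene, at an adjoining region of 431 bp, 169 bp from RUNX2. Shares near the 2.92% of all genes were found for zinc finger genes named Zfp (4 of 321, 1.25%), solute carriers (6 of 203, 2.96%) and genes named Tmem (5 of 161, 3.11%). Housekeeping genes did appear among the 499 genes with regions of both kinds, among them B2m, Gapdh and Pgk1.

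**Figure D5:**
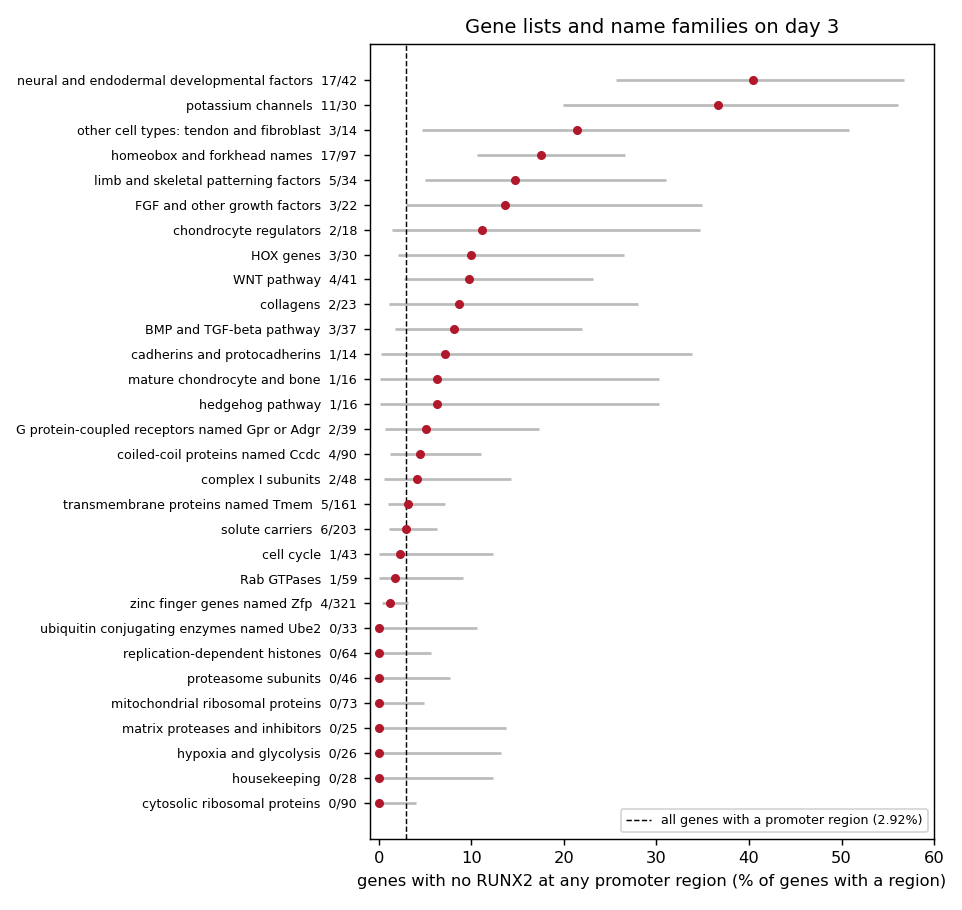
Genes with no RUNX2 at any day 3 promoter region, as a share (%) of the genes with a region, for lists and name families with at least 14 such genes. Bars are exact 95% intervals, the dashed line is the 2.92% of all genes, and neural and endodermal factors (17 of 42) and potassium channels (11 of 30) stand at the top.

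These shares moved with the width of the regions. Where a gene's widest region was at most 500 bp, 263 of 522 genes (50.4%) had no RUNX2. From 500 to 1000 bp it was 80 of 1499 (5.34%), and above 1000 bp it was 9 of 10023 (0.0898%). The median widest region was 943.5 bp for the neural and endodermal factors and 704 bp for the potassium channels, against 1863 bp for the cytosolic ribosomal protein genes. Within the narrowest class, all 12 neural and endodermal factors, 9 of 12 potassium channels, 14 of 16 homeobox and forkhead genes, 5 of 5 limb factors and 3 of 3 HOX genes had no RUNX2. From 500 to 1000 bp it was 4 of 10, 1 of 7, 3 of 14, 0 of 2 and 0 of 5 in the same order. Above 1000 bp it was 1 of 20, 1 of 11, 0 of 67, 0 of 27 and 0 of 22. The part of width and of peak strength in the gene counts was not tested further.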

How the data were processed

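Peak lists of 12 ChIP-seq libraries of ATDC5 cells were used, 2 per antibody (H3K4me3, RUNX2) and day (0, 3 and 10). The 2 input libraries were not analysed here. Per the submitters' processing notes, the authors used FastQC, Trim Galore, HISAT2 2.2.0 and MACS2, with other versions and settings not given in the sources used here. The deposited lists hold, for each peak called in 1 library, its position, its fold enrichment as a linear ratio and the −log10 of its q-value. Both are the authors' values, used here within a list only, to describe peaks or to order and filter them. Depth is unknown.

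The notes name GRCm39, but the coordinates match GRCm38: 37.9 and 43.9% of the day 3 H3K4me3 summits lay no more than 1 kb from an end of a gene in the RefSeq GRCm38.p6 table, against 6.13 and 6.27% after a shift of 20 kb. Positions are counted from 1.

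Overlapping lines of a list were merged on assembled chromosomes, and the 2 day 3 H3K4me3 lists were intersected. Overlap meant at least 1 bp. Regions were named by the nearest gene end, and 21887 protein-coding genes were examined. The strand came from the promoter table where it held the gene. Named are the 10 regions best by the lower of their 2 fold percentiles, the 10 widest, the 10 best absent from days 0 and 10, the 10 best in neither day 0 and both day 10 lists, 5 on either side of the RUNX2 limit, and genes of the lists. Of 688 list genes, 2 were not in the table. Some list genes are counted but not reported by name here. The members and lists were chosen with earlier results of these data known. Shares carry Clopper-Pearson 95% intervals, and libraries were compared with exact permutation tests (Python 3.11.15, pandas 2.3.3, SciPy 1.17.1). The functions passed 8 of 8 checks on 2000 planted regions.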

Additional observations from a re-analysis of the deposited data

How the results depend on the processing

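The number of regions without RUNX2 was 1362 with a window of 2500 bp, 521 with H3K4me3 peaks of a −log10 q of at least 5, 437 with no RUNX2 peak within 1 kb and 494 for stand-alone regions, a setting chosen after seeing the data. It was 952 to 1233 with a day 3 library left out in turn. The difference in the share found again, without minus with RUNX2, stayed below 0 in all 22 alternatives, from -80.4 points with equal numbers of peaks to -25.1 points within the 4 narrower bins of the members' width (-31.3 with all 5), also chosen after seeing the data. It was -46.1 points within bins of the width of all promoter regions and -47.9 points within bins of fold, each with the 2 bins of 5 that held at least 20 regions. With a library left out it was -78.7 to -55.6 points, and p was 0.125, or 0.25 with 3 libraries. The change from day 0 to day 10 was -4.76 points without replicate 2 of day 10 and up to 63.2 points with another library left out, and the cause was not tested. The replicate block, pairing libraries by number, gave 29.2 points (9.06 and 49.4 in the pairs, exact p = 0.5). The deviations of same-numbered libraries had a correlation of 0.097 over regions. With 2 pairs and no label saying what a number marks, the numbers were not taken to pair the libraries. The ratio of median widths, 0.194, was 0.186 to 0.222 in 13 alternatives. The share of neural and endodermal factors without RUNX2, 40.5%, was 27.3% to 53.6% in 11 alternatives. Peak lists without read counts limit all of these: a region missed in a list had no peak called there.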
